A study of Homo sapiens with 6 samples.

Results

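The transcription factor ATF4, its relative CHOP (encoded by DDIT3) and 8 further regulators of the integrated stress response were described in MDA-MB-231 cells after depletion of the ubiquitin protease USP32. The 10 genes are ATF4, DDIT3, ATF3, CEBPB, CEBPG, TRIB3, CHAC1, PPP1R15A, DDIT4 and SESN2, out of 17646 genes listed. They were chosen by name as transcription factors and feedback effectors of the response, and selected on a comparison of siUSP32 with siControl whose results in these libraries were already known. Their differences between the groups are therefore given as a description, with no test.

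MDA-MB-231 is an established human line of triple negative breast cancer. Cells of that 1 line were transfected with control siRNA (siControl) or with siRNA directed at USP32 (siUSP32), and total RNA was sequenced 48 h later, with 3 libraries in each group. Both groups were transfected, so cells without transfection were not part of the comparison. The siRNA sequences are left out (not given in the sources used here). Labels do not state whether libraries within a group were grown as separate cultures. The p-values then measure only the spread between libraries, which may be technical.

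The integrated stress response converges on phosphorylation of the translation initiation factor eIF2 by kinases that sense misfolded protein in the endoplasmic reticulum, amino acid shortage, double-stranded RNA or heme deficiency. Phosphorylated eIF2 slows general translation, while translation of ATF4 mRNA increases because of short upstream reading frames. ATF4 is a bZIP factor that binds DNA as a dimer with C/EBP proteins and other partners and induces amino acid metabolism, CHOP and several feedback genes. Because ATF4 is controlled to a large part in translation, its RNA level measured here is only 1 layer of its activity, and neither eIF2 phosphorylation nor any protein was measured.

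USP32 itself had 7.50, 7.48 and 8.32 FPKM in the siControl libraries and 2.0, 1.88 and 2.01 FPKM in the siUSP32 libraries (limma adjusted p = 8.57e-08). FPKM divides the fragments of a gene by its length and by the mapped total of the library, so levels can be set side by side between genes. The sum of FPKM over all listed genes was 689259 ± 4827 in siControl and 892602 ± 49360 in siUSP32 (SD, n = 3), a ratio of 1.30, and results are given below with each library rescaled to the same sum where this matters. The 5 mesenchymal markers summed to 3162 to 3263 FPKM in siControl and 3590 to 4077 FPKM in siUSP32. Among them VIM had means of 1085 and 1658 FPKM, while FN1 had 421 and 10.6 FPKM. The 5 epithelial markers summed to 6876 to 6974 and 7281 to 8406 FPKM, with KRT7 at 1605 and 2064 FPKM and EPCAM at 10.5 and 4.24 FPKM. Marker values are given as deposited. The mesenchymal and epithelial sums both rose by less than the ratio of 1.30 in total FPKM, so neither rose relative to that total. ESR1 was at most 0.630 FPKM, and ERBB2 was at 11.7 to 12.2 FPKM in siControl and 3.54 to 3.64 FPKM in siUSP32. The 3 immune markers summed to 23.5 to 25.8 FPKM in siControl and 18.4 to 23.5 in siUSP32, nearly all of it CD68, and PTPRC was listed at 0 in 5 libraries and at 0.02 in the other one. The 2 endothelial markers summed to 0.970 to 1.13 and 0.420 to 0.450 FPKM. The 3 fibroblast markers summed to 33.5 to 34.8 and 8.23 to 8.92 FPKM, nearly all of it LUM, and none was at 0 in all libraries. All libraries were of 1 cultured line, so the markers describe expression in that line. The part of their differences in the results below was not tested. In bulk RNA, fewer cells with a marker and less of its RNA per cell cannot be told apart.

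Genes induced by ATF4 often carry a composite C/EBP-ATF response element, a half-site for each partner joined in 1 motif. The letters TGATGNAA were searched on both strands of the 250 bases before each RefSeq start (GRCh38.p14), with TGACGTCA, the cAMP response element bound by ATF and CREB dimers, as a second motif. All 10 genes had a window, and 3 of them, CHAC1, ATF3 and CEBPG, held the first motif in at least 1 window. The second was found in PPP1R15A alone. They are shown because they are the places in these windows where the letters of either motif occur. Each is given as 30 bases on the strand of the gene, with the motif in capitals.
CHAC1, chr15:40953251-40953280 (plus strand of the genome, motif on the opposite strand, first base 209 before the start): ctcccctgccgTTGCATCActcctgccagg
ATF3, chr1:212565205-212565234 (plus strand, first base 191 before the start): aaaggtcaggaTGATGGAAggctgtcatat
CEBPG, chr19:33374060-33374089 (plus strand, first base 42 before the start): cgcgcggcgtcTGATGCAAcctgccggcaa
PPP1R15A, chr19:48872352-48872381 (plus strand, second motif, first base 58 before the start): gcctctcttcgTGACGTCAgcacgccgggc

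The variable base of the first motif is C in CHAC1 and CEBPG, read on the motif's strand as TGATGCAA, and G in ATF3, as TGATGGAA. ATF3 and CEBPG have more than 1 RefSeq start, and the motif lies before 1 of them. Of 14068 listed genes with a window, 2.89% held TGATGNAA and 2.92% held TGACGTCA. No match says only that these letters are not in that window, and several of the windows overlap exons of other annotated transcripts.

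Over the transcriptome, genes with and without the motif had like shares of calls. Apart from the 10 genes, 213 tested genes held TGATGNAA, of which 34.7% were called higher and 43.2% lower in siUSP32, with a median log2 difference of -0.06. Among the 9637 tested genes whose windows lacked it, 34.0% were called higher and 40.6% lower, with a median of -0.06. Of 31 other known target genes of ATF4 and CHOP with a window, 2 held the motif, ASNS and SLC1A5, named after their values were seen. ASNS, the asparagine synthetase gene, rose from 23.3 to 91.3 FPKM (limma adjusted p = 1.10e-08). SLC1A5, a glutamine transporter gene, fell from 38.9 to 32.3 FPKM (limma adjusted p = 0.00227).

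**Figure D1:**
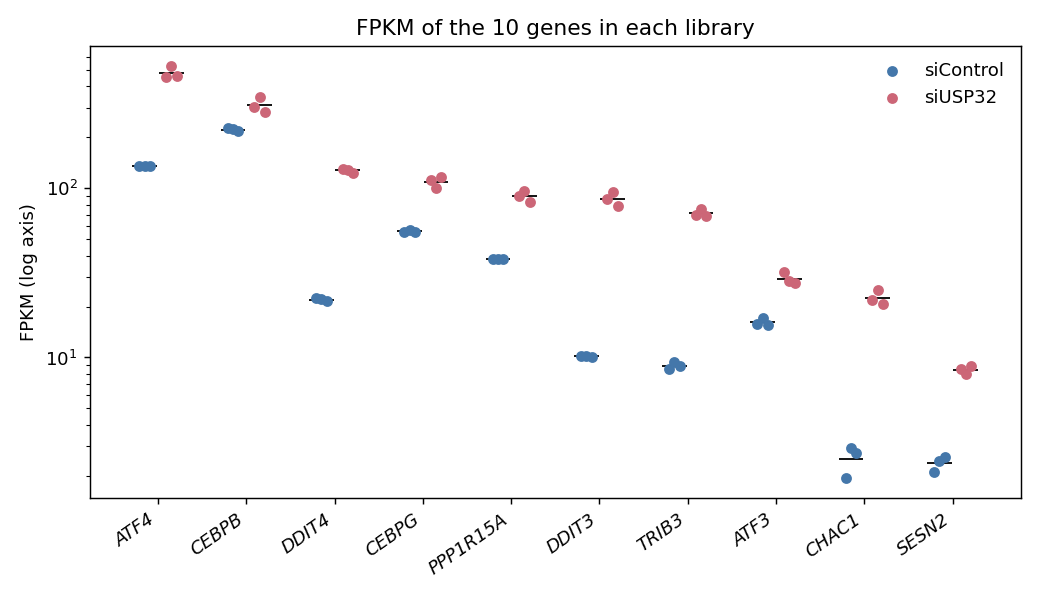
FPKM (log axis) of the 10 genes in each of the 6 libraries, ordered by their siUSP32 mean. Points are libraries and horizontal lines are group means (n = 3). Each siUSP32 point lies above each siControl point of the same gene, from ATF4 at 135 and 481 FPKM to SESN2 at 2.37 and 8.45 FPKM.

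Each of the 10 genes was higher in every siUSP32 library than in every siControl library, against 34.6% of all 12003 genes tested that were separated in this direction. Nothing is read from that count, since the comparison chose the genes. Their combined FPKM went from 513 ± 5.75 to 1337 ± 83.6, a ratio of 2.60. The median log2 difference was 1.65, with a range of 0.48 to 2.97, against a median of -0.06 over all genes tested. The 5 effectors had a median of 2.48 and the 5 transcription factors a median of 0.96.

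ATF4, the central factor of the response, is on chromosome 22 (39519695 to 39522685, plus strand, GRCh38). It had 135, 135 and 135 FPKM in the siControl libraries and 455, 525 and 461 FPKM in the siUSP32 libraries. The coefficient of variation was 0.104% over the control libraries and 8.08% over those of siUSP32. The siControl mean of 135 ± 0.140 and the siUSP32 mean of 481 ± 38.8 FPKM (SD, n = 3) gave a fold of 3.56 and a log2 difference of 1.82 ± 0.06 (SE). ATF4 was second among the 10 genes in siControl, after CEBPB, and first in siUSP32, where it made up 35.9% of their summed FPKM against 26.3%. It has 4 annotated pseudogenes that could share its reads, and their handling is not given, so its level is uncertain to that extent.

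DDIT3 encodes CHOP, a bZIP factor that ATF4 induces and that can drive cell death under lasting stress. It lies on chromosome 12 (57516588 to 57521737, minus strand, GRCh38). Its FPKM was 10.2, 10.2 and 10.1 in siControl and 86.3, 94.8 and 78.4 in siUSP32. The groups were far apart, with the lowest siUSP32 library 7.71-fold above the highest siControl library. The fold of the means was 8.53 and the log2 difference 2.97 ± 0.07 (SE), the third highest of the 12003 genes tested. DDIT3 stood at 7.51% of the FPKM of ATF4 in siControl and at 18.0% in siUSP32. The annotation places other genes over the DDIT3 locus on both strands, and with strand handling not given their reads cannot be told apart from its own.

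ATF3 is a stress-inducible bZIP factor that can repress its targets. It lies on chromosome 1 (212565334 to 212620777, plus strand, GRCh38), and its FPKM was 15.8, 17.2 and 15.5 in siControl and 31.9, 28.4 and 27.4 in siUSP32. The groups did not overlap. The fold was 1.81 and the log2 difference 0.82 ± 0.07 (SE). With each library rescaled to the same sum the difference was 0.46. Its level relative to ATF4 went from 12.0% to 6.12%.

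CEBPG and CEBPB are C/EBP proteins that dimerize with ATF4. CEBPG (chromosome 19, 33373330 to 33382686, plus strand, GRCh38) was at 55.3, 56.7 and 54.9 FPKM in siControl and at 112, 100.1 and 116 FPKM in siUSP32. All siUSP32 libraries were higher, by a fold of 1.97 in the mean and a log2 difference of 0.96 ± 0.06 (SE). That difference was 0.59 with the libraries rescaled to the same sum. CEBPB (chromosome 20, 50190734 to 50192689, plus strand, GRCh38), a gene of 1 exon, was at 227, 223 and 217 FPKM in siControl and at 304, 348 and 282 FPKM in siUSP32.

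CEBPB had the smallest difference of the 10 genes. Its fold was 1.40 and its log2 difference 0.48 ± 0.07 (SE), which ranked 2024th of the 12003 genes tested, counted from the highest. The difference was 0.11 with the libraries rescaled to the same sum, where the groups overlapped, 0.15 after quantile normalization and 0.30 after correction for transcript length. CEBPB had 1.65 times the FPKM of ATF4 in siControl and 0.647 times in siUSP32. An antisense gene, CEBPB-AS1, overlaps it in the annotation.

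TRIB3, a pseudokinase that ATF4 and CHOP induce and that restrains both ATF4 and AKT signalling, lies on chromosome 20 (380617 to 397559, plus strand, GRCh38). It had 8.52, 9.34 and 8.85 FPKM in siControl and 69.6, 75.1 and 68.6 FPKM in siUSP32. The siUSP32 libraries were close to each other, with a coefficient of variation of 4.88%. The fold was 7.99 and the log2 difference 2.86 ± 0.06 (SE), the fifth highest of all genes tested.

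CHAC1, a glutathione-degrading enzyme, lies on chromosome 15 (40952962 to 40956519, plus strand, GRCh38) and has the letters TGATGNAA in the window described above. All 250 bases of that window lie in annotated exons, and binding there was not tested. It was low in siControl, at 1.95, 2.91 and 2.71 FPKM, and reached 21.8, 24.9 and 20.8 FPKM in siUSP32. Its control values varied the most of the 10 genes, with a coefficient of variation of 20.1%. The fold of 8.92 was the highest of the 10, while the log2 difference of 2.74 ± 0.11 (SE) is smaller than that of DDIT3 because 1 is added to each value before the log.

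DDIT4 (also called REDD1) inhibits mTORC1 through the TSC complex. It lies on chromosome 10 (72273920 to 72276036, plus strand, GRCh38), where the antisense gene DDIT4-AS1 overlaps it. It was at 22.3, 22.0 and 21.6 FPKM in siControl and at 131, 129 and 124 FPKM in siUSP32. The values within each group were tight, at coefficients of variation of 1.67% and 2.88%. The fold was 5.81 and the log2 difference 2.48 ± 0.05 (SE), the tenth highest of all genes tested.

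PPP1R15A encodes GADD34, the inducible subunit that brings protein phosphatase 1 to eIF2 and so ends the response. It lies on chromosome 19 (48872392 to 48876057, plus strand, GRCh38). Its FPKM was 38.5, 38.4 and 38.3 in siControl and 89.8, 96.8 and 83.4 in siUSP32, a fold of 2.34 and a log2 difference of 1.20 ± 0.06 (SE). SESN2, a leucine sensor that binds the GATOR complex and restrains mTORC1, lies on chromosome 1 (28259527 to 28282491, plus strand, GRCh38). It had the lowest mean of the 10 genes in both groups, at 2.11, 2.43 and 2.58 FPKM in siControl and at 8.51, 7.94 and 8.89 FPKM in siUSP32. Its fold was 3.56 and its log2 difference 1.49 ± 0.08 (SE).

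The order of the 10 genes by level changed between the groups. In siControl it ran from CEBPB at 222 ± 4.79 FPKM through ATF4, CEBPG, PPP1R15A, DDIT4, ATF3, DDIT3, TRIB3 and CHAC1 to SESN2 at 2.37 ± 0.240 FPKM. The libraries of CHAC1 (1.95 to 2.91 FPKM) and SESN2 (2.11 to 2.58 FPKM) overlapped there. In siUSP32 it ran from ATF4 through CEBPB, DDIT4, CEBPG, PPP1R15A, DDIT3, TRIB3, ATF3 and CHAC1 to SESN2. PPP1R15A at 90.0 ± 6.68 and DDIT3 at 86.5 ± 8.24 FPKM were then close in their means, with PPP1R15A the higher in each siUSP32 library. DDIT4 moved from the fifth place to the third, and ATF3 from the sixth to the eighth.

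**Figure D2:**
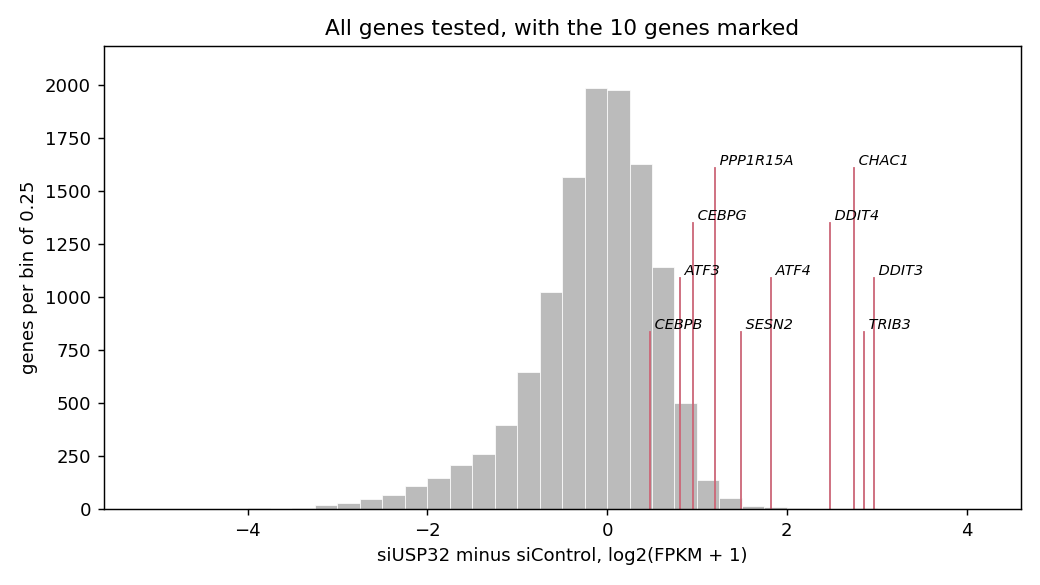
Histogram of the log2 difference, siUSP32 minus siControl, over the 12003 genes tested in bins of 0.25, with a vertical line at each of the 10 genes. The height of a line has no meaning. The all-gene median is -0.06, and DDIT3, TRIB3, CHAC1 and DDIT4 lie at the far right.

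Within the whole distribution, DDIT3, TRIB3, CHAC1 and DDIT4 were among the 10 genes with the highest differences. ATF4 ranked 27th and SESN2 52nd. PPP1R15A was at place 121, CEBPG at 278 and ATF3 at 557. By this order the 10 genes spread from the extreme to the shoulder of the distribution, and the bZIP partners CEBPG, ATF3 and CEBPB were the nearest to its centre.

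**Figure D3:**
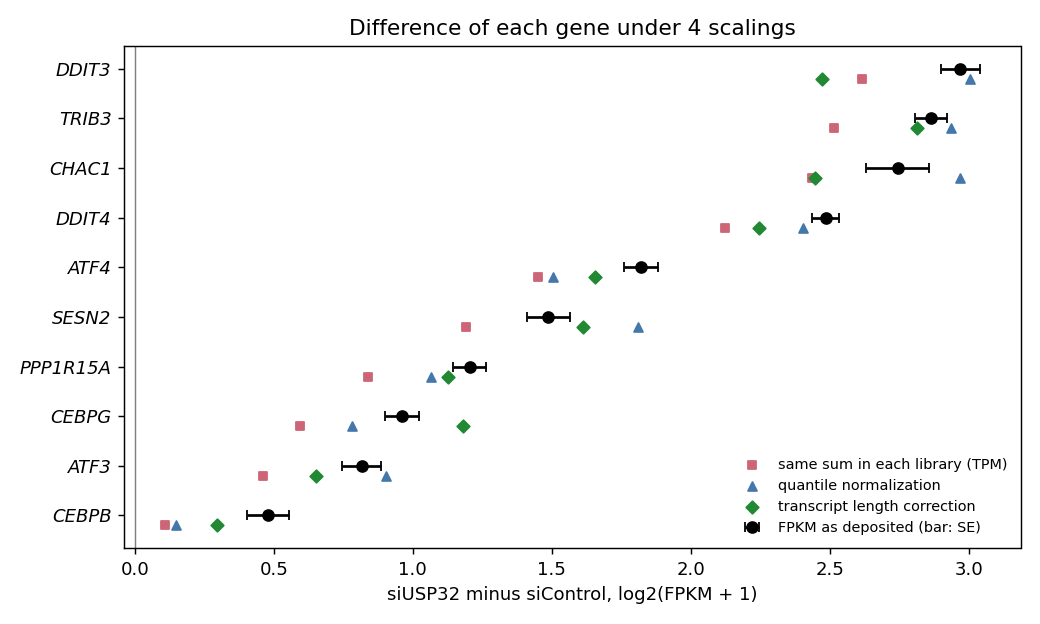
Log2 difference, siUSP32 minus siControl, of each gene with FPKM as deposited (black circles, bars are the SE), with libraries rescaled to the same sum (squares), after quantile normalization (triangles) and after correction for transcript length (diamonds). All values are above 0, with CEBPB the closest to it at 0.11 and 0.15.

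Scaling moved the median of all genes. Rescaling each library to the same FPKM sum shifted the all-gene median by -0.32, and quantile normalization shifted it by 0.16. Measured from the all-gene median of each scaling, the median of the 10 genes was 1.72 as deposited, 1.70 rescaled to the same sum, 1.56 after quantile normalization and 1.62 after correction for transcript length. Single genes moved in either direction after quantile normalization, from 0.96 to 0.78 for CEBPG and from 1.49 to 1.81 for SESN2. CEBPB, measured from the all-gene median, was at 0.54, 0.49, 0.05 and 0.29. With rescaled values the groups did not overlap for 9 of the 10 genes. The transcripts of the 10 genes ranged from 940 bases for DDIT3, shorter than most, to 4109 bases for CEBPG. The length correction took DDIT3 from 2.97 to 2.47 and CEBPG from 0.96 to 1.18.

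**Figure D4:**
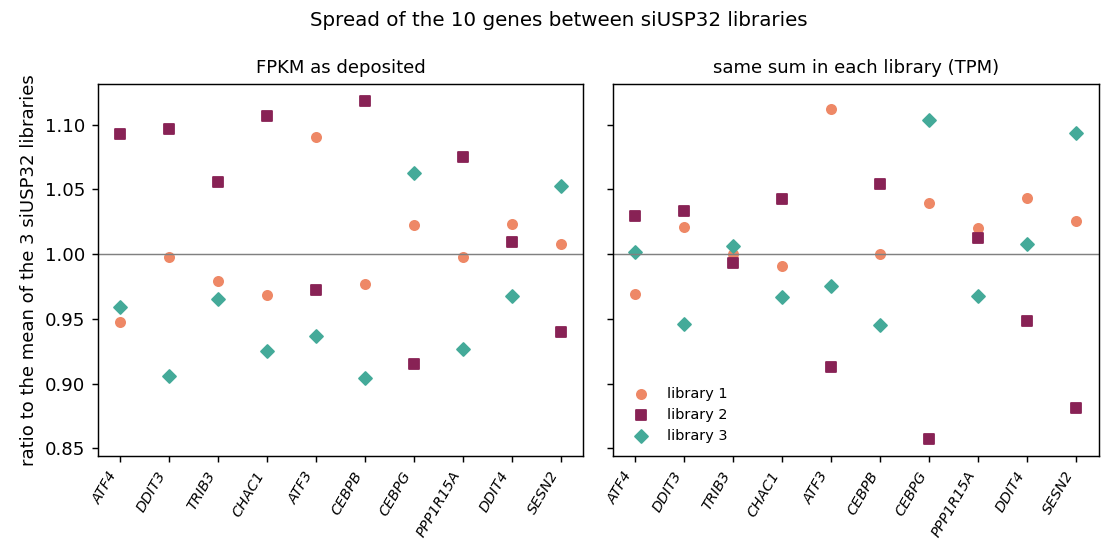
Level of each gene in the 3 siUSP32 libraries divided by their mean, with FPKM as deposited (left) and with libraries rescaled to the same sum (right). Library 2 is the highest for 6 of the 10 genes on the left and for 4 on the right, and the lowest for CEBPG and SESN2 in both panels. On the right it is also the lowest for TRIB3, ATF3 and DDIT4.

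The siUSP32 libraries were not equally high. Library 2 was the highest for ATF4, DDIT3, TRIB3, CHAC1, CEBPB and PPP1R15A, and the lowest for CEBPG and SESN2. Library 3 was the lowest for 7 of the 10 genes. The FPKM of all listed genes summed to 873592, 948641 and 855573 in libraries 1, 2 and 3, so library 2 was also the highest in its total. After rescaling, library 2 was the highest for 4 genes and the lowest for CEBPG, SESN2, TRIB3, ATF3 and DDIT4. The coefficient of variation over siUSP32 libraries was then 3.01% against 8.08% for ATF4, 4.69% against 9.53% for DDIT3 and 0.671% against 4.88% for TRIB3. It was larger after rescaling for 4 genes, at 12.8% against 7.61% for CEBPG, 10.9% against 5.66% for SESN2, 10.2% against 8.04% for ATF3 and 4.82% against 2.88% for DDIT4.

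**Figure D5:**
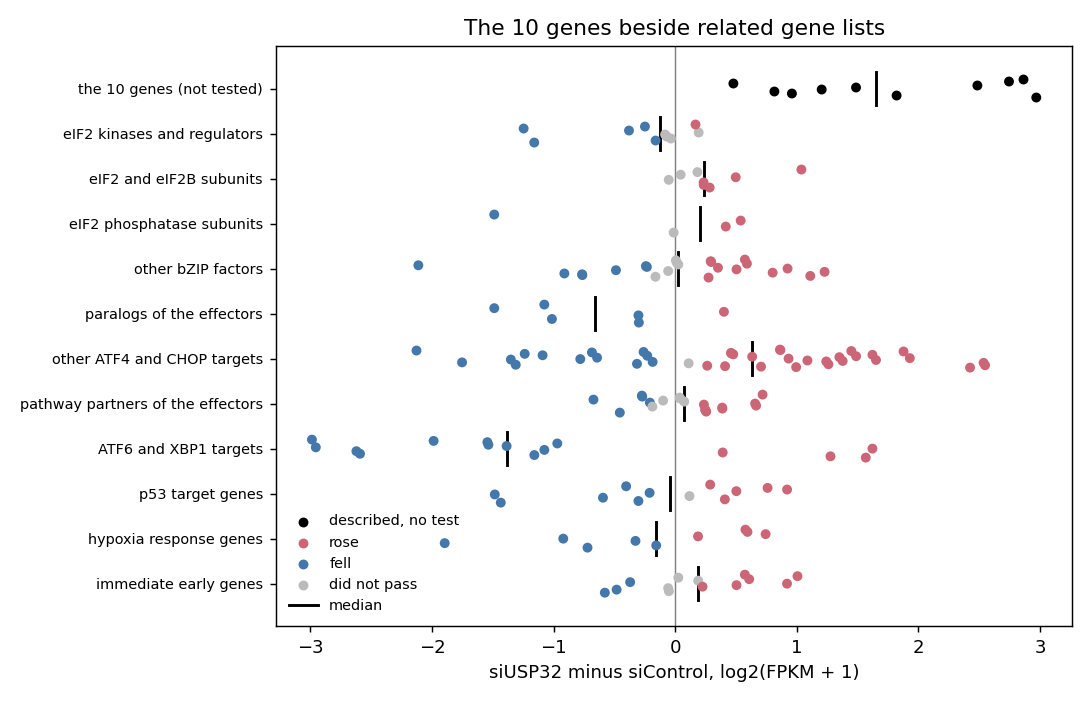
Log2 difference, siUSP32 minus siControl, of the 10 genes (black, not tested) and of the tested genes of 11 related lists, coloured by whether they rose, fell or did not pass limma's test at an adjusted p of 0.05. Vertical bars are medians, from -1.39 for the ATF6 and XBP1 targets to 0.63 for the other ATF4 and CHOP targets and 1.65 for the 10 genes.

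Other genes of the pathway, none of them among the 10, were counted with limma's adjusted p over all genes tested, where 33.3% of genes rose and 41.3% fell. That is 4001 and 4956 genes, a split that was 1723 and 7462 with the libraries rescaled to the same sum and 5253 and 3604 after quantile normalization. With the length correction 4194 rose and 4205 fell, of 11962 genes tested. The counts below are read against those shares, and counts under another scaling against the split of that scaling. Of the 152 tested genes in 11 lists, 71 rose and 59 fell. With the libraries rescaled to the same sum, 43 rose and 78 fell.

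Upstream of ATF4, the eIF2 kinases and their regulators were mostly lower or not called. Of 10 tested, 5 fell, 1 rose and 4 did not pass, with a median of -0.12. Rescaled to the same sum 9 fell and 1 did not pass, and after the length correction 2 fell and 4 rose. The count rests on single libraries too, since 3 fell when library 1 of siControl, library 2 of siControl or library 1 of siUSP32 was left out. EIF2AK3, which encodes the endoplasmic reticulum kinase PERK, fell from 5.04 ± 0.571 to 1.54 ± 0.135 FPKM (limma adjusted p = 1.64e-06, log2 difference -1.25). DNAJC3, which encodes the PERK inhibitor P58IPK, fell from 8.78 to 3.39 FPKM (limma adjusted p = 1.45e-06). Outside the naming rule, the other 3 kinases were at 49.2 and 48.2 FPKM for EIF2AK1 (HRI), 10.5 and 9.33 for EIF2AK2 (PKR) and 7.18 and 5.91 for EIF2AK4 (GCN2), with limma adjusted p-values of 0.692, 0.0311 and 0.0222. With the length correction the differences of EIF2AK2 and EIF2AK4 were positive, at 0.39 and 0.11. The gene that rose was PRKRA, which encodes a PKR activator, from 58.4 to 65.7 FPKM (limma adjusted p = 0.0167; it did not pass without siControl library 2), with a log2 difference of 0.17 that was -0.20 rescaled to the same sum and -0.05 with the length correction.

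The substrate of the kinases and its phosphatase come next. Of the 8 eIF2 and eIF2B subunits 5 rose and 3 did not pass, with a median of 0.23, while 1 rose and 2 fell with the libraries rescaled to the same sum. EIF2S2, the beta subunit of eIF2, rose from 213 ± 5.04 to 438 ± 10.9 FPKM (limma adjusted p = 8.68e-08, log2 difference 1.04). EIF2B3, a subunit of the exchange factor eIF2B, rose from 23.8 to 33.9 FPKM (limma adjusted p = 3.73e-05), which did not pass when rescaled to the same sum. Of the 4 other phosphatase subunits 2 rose and 1 fell, and 1 rose and 2 fell rescaled to the same sum. PPP1R15B, the constitutive counterpart of PPP1R15A, fell from 27.4 ± 0.748 to 9.16 ± 0.955 FPKM (limma adjusted p = 1.94e-07, log2 difference -1.49). The catalytic subunit gene PPP1CA rose from 171 to 250 FPKM (limma adjusted p = 2.84e-05).

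The close paralogs of the effectors were mostly lower. Of 6 tested, 5 fell and 1 rose, with a median of -0.66. TRIB2, a paralog of TRIB3, fell from 12.8 ± 0.317 to 5.56 ± 0.869 FPKM (limma adjusted p = 8.12e-06), beside 8.90 and 71.1 FPKM for TRIB3. The phosphatase subunit PPP1R15B, described above, was the other named fall, beside 38.4 and 90.0 FPKM for PPP1R15A. CHAC2, a paralog of CHAC1, rose from 15.8 to 21.2 FPKM (limma adjusted p = 0.00165, log2 difference 0.40). This did not pass with the libraries rescaled to the same sum (0.05) or with the length correction (0.02). Whether a gene and its paralog differed in their response was not tested.

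Among 23 other tested bZIP factors 11 rose, 7 fell and 5 did not pass, with a median of 0.03, and rescaled to the same sum 7 rose and 12 fell. FOSL1, a FOS-family partner of JUN, rose from 130 ± 3.35 to 248 ± 11.8 FPKM (limma adjusted p = 3.84e-07). XBP1, the factor activated by the sensor IRE1, rose from 49.9 to 87.8 FPKM (limma adjusted p = 2.64e-06). NFE2L1, which controls proteasome genes and is made as a membrane protein of the endoplasmic reticulum, fell from 65.5 ± 1.09 to 14.4 ± 0.433 FPKM (limma adjusted p = 2.95e-09, log2 difference -2.11). FOSL2 fell from 8.78 to 4.20 FPKM (limma adjusted p = 1.83e-06).

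The other known target genes of ATF4 and CHOP divided. Of 39 tested, 25 rose, 13 fell and 1 did not pass, with a median of 0.63, which was 0.27 rescaled to the same sum. PHGDH, which opens the serine pathway, rose from 36.2 ± 0.563 to 199 ± 6.51 FPKM (limma adjusted p = 1.46e-09). PCK2, a mitochondrial enzyme of phosphoenolpyruvate synthesis, rose from 4.25 to 29.5 FPKM (limma adjusted p = 6.25e-09). The amino acid transporter genes SLC7A5 and SLC38A2 fell, from 116 ± 1.56 to 33.8 ± 0.747 and from 118 ± 5.10 to 26.4 ± 2.98 FPKM (limma adjusted p = 4.14e-09 and 3.14e-08). NUPR1, SLC7A11, FGF21 and INHBE were listed but had a mean FPKM under 1.

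In the pathways that the effectors act on, 9 of 19 tested genes rose and 5 fell, with a median of 0.07, and 3 rose and 10 fell with the libraries rescaled to the same sum. With the length correction 8 rose and 1 fell, 7 rose and 2 fell without siControl library 2, and 6 rose and 3 fell without siUSP32 library 1. AKT1, the kinase that TRIB3 binds, rose from 63.4 ± 1.57 to 101 ± 1.24 FPKM (limma adjusted p = 1.41e-06). SEC13, a subunit shared by GATOR2 and the COPII coat, rose from 83.3 to 138 FPKM (limma adjusted p = 2.13e-06). TSC1 fell from 5.02 to 2.80 FPKM (limma adjusted p = 1.07e-04) and MTOR from 10.2 to 7.18 FPKM (limma adjusted p = 3.92e-04). Both TSC1 and MTOR lost their falls with the length correction, at log2 differences of -0.16 and 0.06.

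Chaperone and degradation genes that ATF6 and XBP1 induce, the other arms of the endoplasmic reticulum stress response, were mostly lower. Of 15 tested, 11 fell and 4 rose, with a median of -1.39. HSP90B1 and HYOU1 fell, from 458 ± 8.78 to 75.2 ± 3.13 and from 87.7 ± 0.235 to 13.4 ± 0.822 FPKM (limma adjusted p = 1.34e-09 and 2.02e-09). HERPUD1 and MANF rose, from 15.2 ± 0.612 to 48.8 ± 4.40 and from 145 ± 1.08 to 433 ± 35.6 FPKM (limma adjusted p = 8.03e-08 and 3.98e-08).

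Some of the 10 genes also respond to p53, to hypoxia or as immediate early genes, and those programmes were counted for that reason. The cell line used is p53-mutant, and the activity of p53 was not measured. Of 12 tested p53 target genes 5 rose and 6 fell, with a median of -0.05, while 2 rose and 6 fell rescaled to the same sum and 6 rose and 3 fell after quantile normalization. CDKN1A, the cell cycle inhibitor p21, rose from 66.4 to 113 FPKM (limma adjusted p = 3.17e-06). ZMAT3 fell from 5.90 to 1.56 FPKM (limma adjusted p = 1.76e-07). Of 9 tested hypoxia genes 4 rose and 5 fell, with a median of -0.16, and 2 rose and 4 fell with the length correction. SLC2A1, the glucose transporter GLUT1, fell from 115 to 30.2 FPKM (limma adjusted p = 2.95e-09), and ADM rose from 16.0 to 27.5 FPKM (limma adjusted p = 3.34e-06). Of 13 immediate early genes 6 rose and 3 fell, with a median of 0.19. Rescaled to the same sum 5 rose and 6 fell, and with the length correction 6 rose and 5 fell. IER3 rose from 177 to 358 FPKM (limma adjusted p = 6.72e-07). MCL1, an anti-apoptotic gene, fell from 318 to 228 FPKM (limma adjusted p = 3.88e-04).

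The genes with the pattern most like that of DDIT3 were found by the root mean square distance, over the 6 libraries, of log2 values taken relative to the siControl mean. They were MT1X at 0.094, GDF15 at 0.303, PCK2 at 0.320, EIF3CL at 0.390 and PHGDH at 0.391. Their log2 differences ran from 2.42 to 2.89. A small distance here mostly means a rise of like size, in the same comparison that chose DDIT3 and ATF4, so nothing more is read from it. MT1X and EIF3CL have near-identical relatives and are uncertain for that reason. Those nearest to ATF4 were FMC1 at 0.067, SAT1 at 0.071, G0S2 at 0.072, IL1B at 0.082 and OGFR at 0.089. Mean FPKM went from 173 to 1258 for MT1X and from 191 to 693 for SAT1.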

How the data were processed

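Total RNA of 6 libraries was compared, 3 of siControl and 3 of siUSP32, grouped by their titles. The authors deposited FPKM, per the file headers, with 2 decimals and no read depth, so no counting error could be given. Per the submitters' processing notes, GRCh38.p13 served as the genome (aligner, counter, annotation, strand handling and filters: not given in the sources used here).

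Values were analysed as log2(FPKM + 1), which understates changes of low genes, for 12003 genes whose FPKM averaged 1 or more. All 10 genes passed. Groups were compared with limma 3.58.1 (R 4.3.3, mean-variance trend, 2-sided, Benjamini-Hochberg over all genes tested, threshold 0.05). For 1 gene, an exact permutation test of 3 against 3 libraries cannot go below p = 0.1. The members and lists were chosen with earlier results of these data known. Named genes were the 10 genes, USP32, up to 2 rises and 2 falls of each list with the smallest adjusted p, and the 5 nearest patterns to DDIT3 and ATF4. Gene positions and transcript lengths (99.7% of genes tested) come from GENCODE on GRCh38, and motif windows from RefSeq on GRCh38.p14. The length correction was a robust loess curve with span 0.5, and its robust fit was chosen after seeing the data. There were 15 alternative settings.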

Additional observations from a re-analysis of the deposited data

How the results depend on the processing

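Each of the 10 genes kept a positive difference in all 15 alternatives. Rescaling to the same sum gave 1723 genes called higher and 7462 lower over all genes, against 4001 and 4956, and 43 of the pathway list genes called higher and 78 lower, against 71 and 59. A minimum mean FPKM of 5 left 8645 genes tested, against 12003, of which 3068 were lower. Quantile normalization gave 5253 higher and 3604 lower. Of the pathway partners 2 fell, against 5 of 19, with a minimum mean FPKM of 5, where only 15 were tested. With median-ratio scaling 2 fell, and 3 fell after quantile normalization. Of the eIF2 kinases and regulators 3 fell, against 5, with median-ratio scaling and after quantile normalization. Of the p53 targets 3 fell, against 6 of 12, with a minimum mean FPKM of 5, where only 7 were tested. PRKRA, a PKR activator gene with a difference of 0.17, reversed with the same-sum rescaling (-0.20) and with the length correction (-0.050), and MTOR reversed with the length correction (0.059). Leaving out 1 library at a time moved ATF4 between 1.75 and 1.86, DDIT3 between 2.90 and 3.04 and CEBPB between 0.40 and 0.55. With the replicate number as a block, 4016 genes were higher and 4979 lower, and no list count moved by over 1.5 times. Same-numbered libraries correlated at -0.08, 0.07 and 0.12 in their deviations from the group means, not every library correlated best with its own number, and the labels give no pairing. Read depth is unknown, so the precision of low values such as those of CHAC1 and SESN2 in siControl rests on 3 libraries alone.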
